A study of Mus musculus with 4 samples.

Results

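The cell cycle and proliferation genes examined here are 44 genes of the cyclin, replication, mitosis and CDK inhibitor families, chosen by name from 33981 genes in the joined tables. All 44 were found, each under 1 identifier, and 43 of the 44 had a mean of 10 or more counts over the 24 libraries; *Bub1* had a mean count of 6.17. The libraries were made from poly(A) RNA of coronal brain sections with the prefrontal cortex, taken from male C57BL/6J mice aged 3 to 5 months. All 4 groups carried an infusion for 28 days and had surgery on day 7. NT + Sham mice received saline and sham surgery, and NT + Stroke mice received saline and photothrombosis, in which light activates a dye and clots cortical vessels, aimed at the prefrontal cortex (the labels and the methods give different distances from bregma). HT + Sham and HT + Stroke mice received the same surgeries while angiotensin II (0.28 mg/kg per day) was infused, which raises blood pressure. GEO lists 1 sample per group while the tables number 6 libraries in each, and each library was taken as 1 mouse, so *P*-values measure the spread between these libraries. Tissue was collected on day 28, so the values describe the late phase after the clot and not its first days. Total counts per library ranged from 15922919 to 24865998.

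The cell cycle is driven by cyclin-dependent kinases (CDKs). D-type cyclins with *Cdk4*, and then cyclin E, free the E2F factors, which switch on the genes of DNA replication. The MCM proteins form the ring-shaped helicase that licenses each origin. *Cdk1* with cyclins A and B then drives the entry into mitosis, the kinases and checkpoint proteins order the separation of chromosomes, and the inhibitors p21 and p27 hold CDKs back. In the adult brain, neurons have left the cycle, and dividing cells are found mainly among neural progenitors of the subventricular zone, oligodendrocyte precursors, and, after injury, microglia and other reactive cells. In RNA of a whole section, fewer cells of a type and less RNA per cell cannot be told apart.

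Promoter sequences of 5 members are shown. Of these, *Mcm3*, *Mki67*, *Cdc20* and *Cdkn1a* each passed the test in at least 1 comparison of a stroke group with NT + Sham, and *Top2a* is a mitotic gene that did not pass. Other members that passed, such as *Cdk4* and *Mcm7*, are not shown. Each sequence shown is the 250 bases before a RefSeq start on GRCm38.p6, written 5′ to 3′ on the strand of the gene. The capitals mark TTTGAA (the core of the cell cycle homology region, CHR), the E2F forms TTTCCCGC, TTTGGCGC and TTCCCGCC, and CCAAT (the NF-Y box), on either strand. The windows are chr1:20820313-20820562 (minus strand) for *Mcm3*, chr7:135716380-135716629 (minus) for *Mki67*, chr11:99024190-99024439 (minus) for *Top2a*, chr4:118437344-118437593 (minus) for *Cdc20*, and chr17:29090729-29090978 (plus) for *Cdkn1a*.
Mcm3: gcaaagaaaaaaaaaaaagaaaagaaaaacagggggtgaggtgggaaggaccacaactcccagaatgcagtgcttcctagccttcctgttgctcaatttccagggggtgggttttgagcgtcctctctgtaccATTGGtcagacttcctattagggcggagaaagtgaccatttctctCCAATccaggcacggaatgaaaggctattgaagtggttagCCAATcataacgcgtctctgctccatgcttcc
Mki67: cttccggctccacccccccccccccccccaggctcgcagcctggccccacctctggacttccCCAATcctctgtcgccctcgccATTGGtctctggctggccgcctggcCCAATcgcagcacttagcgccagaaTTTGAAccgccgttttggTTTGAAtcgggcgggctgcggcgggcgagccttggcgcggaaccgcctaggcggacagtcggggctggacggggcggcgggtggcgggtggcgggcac
Top2a: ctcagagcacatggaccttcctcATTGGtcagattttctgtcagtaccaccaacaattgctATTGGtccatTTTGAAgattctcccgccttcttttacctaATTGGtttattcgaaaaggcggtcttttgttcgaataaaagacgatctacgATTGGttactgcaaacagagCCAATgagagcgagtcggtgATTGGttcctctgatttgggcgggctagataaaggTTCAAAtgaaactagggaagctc
Cdc20: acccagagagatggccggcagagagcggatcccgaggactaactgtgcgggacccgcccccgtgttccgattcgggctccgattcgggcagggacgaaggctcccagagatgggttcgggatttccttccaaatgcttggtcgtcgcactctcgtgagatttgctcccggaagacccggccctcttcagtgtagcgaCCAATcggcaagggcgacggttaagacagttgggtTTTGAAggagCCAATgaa
Cdkn1a: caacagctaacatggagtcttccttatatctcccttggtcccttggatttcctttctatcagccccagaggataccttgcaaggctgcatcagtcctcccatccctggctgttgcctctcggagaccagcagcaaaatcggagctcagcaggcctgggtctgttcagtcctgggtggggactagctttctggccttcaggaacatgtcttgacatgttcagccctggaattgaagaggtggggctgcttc
The windows of *Mcm3*, *Mki67*, *Top2a* and *Cdc20* hold CCAAT, those of *Mki67*, *Top2a* and *Cdc20* also hold TTTGAA, and the window of *Cdkn1a* shown holds none of the letters searched. *Cdkn1a* has another RefSeq promoter, at chr17:29093519-29093768 (plus), which is not shown and also holds none of them. The RefSeq table had 38 promoters for 35 of the members. CCAAT was in 76.3% of these 38 promoters and in 33.8% of all 32851 promoters of the table. TTTGAA was in 23.7% of them and in 16.0% of all. At least 1 of the E2F forms was in 10.5% of them, those of *Mcm5*, *Mcm6*, *Mcm7* and *Rrm1*, and in 2.69% of all. A match is a run of letters and not a measured binding site.

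Per unit of length, the members spanned a wide range. Mean FPKM (fragments scaled by gene length and library size) over the 24 libraries was highest for *Pcna*, the sliding clamp of DNA polymerase, at 22.1, and for *Cdk4* at 19.4. The CDK inhibitors *Cdkn1a* and *Cdkn1b* had 11.5 and 9.93 FPKM. The 6 regulators of G1 ranged from 1.57 FPKM (*Ccne2*) to 19.4 FPKM (*Cdk4*), and the 11 genes of replication and DNA synthesis from 0.216 (*Tk1*) to 22.1 FPKM. The genes of mitosis lay lower. The 5 members made of the S, G2 and M cyclins, *Cdk1* and *Foxm1* ranged from 0.128 to 0.731 FPKM, the 10 mitotic kinases, checkpoint and ubiquitin ligase factors from 0.0763 (*Bub1*) to 1.64 (*Plk1*), and the 10 chromosome, kinetochore and spindle proteins from 0.0380 (*Cenpf*) to 0.567 (*Kif20a*). *Mki67* and *Top2a*, whose products are stained in dividing cells, lay low in that order, at 0.152 FPKM and 0.181 FPKM. In counts, *Mki67* had 9 to 76 per library and *Cdk4* had 841 to 1708, so the precision of a fold change differed between members.

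**Figure D1:**
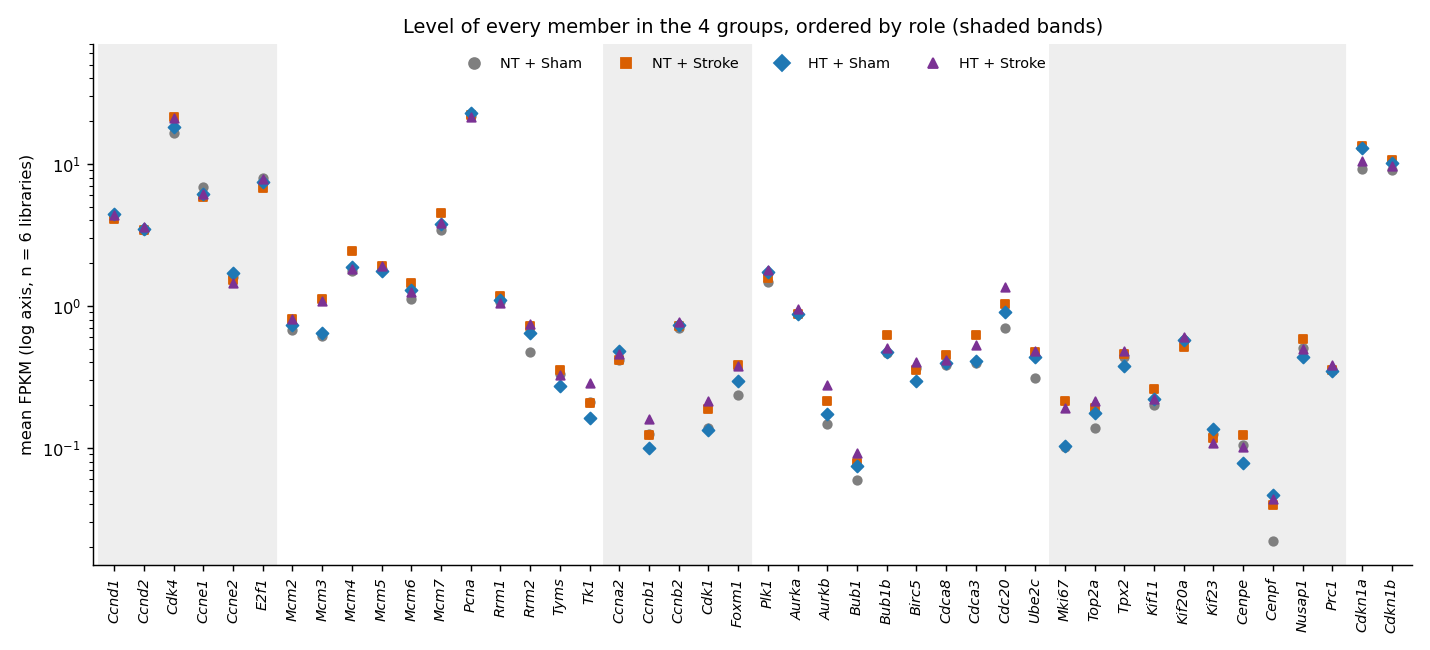
Mean FPKM of each of the 44 members (log axis) in the 4 groups, with 1 point per group (mean of 6 libraries) and shaded and plain bands for the roles. *Pcna*, *Cdk4*, *Cdkn1a* and *Cdkn1b* lie highest, and most genes of mitosis lie below 1 FPKM in every group.

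Some libraries stood apart from their group in markers of injury. The summed level of 7 macrophage and activated myeloid genes (among them *Cd68*, *Lgals3* and *Gpnmb*) was 32.3 to 38.2 CPM (counts scaled by the library total) in NT + Sham and 243 to 1248 CPM in NT + Stroke. In HT + Sham it was 33.5 to 47.5 CPM in 5 libraries and 309.5 CPM in library 6. In HT + Stroke it was 284 to 1334 CPM in 4 libraries, and 67.8 and 78.9 CPM in libraries 1 and 6. Results for the stroke comparisons of HT mice are therefore given with all libraries and without these 3, a choice made after the data were seen and on markers that differ between stroke and sham. The section also held tissue outside the cortex. All 7 cortical neuron genes were detected (summed 5945 to 6543 CPM in NT + Sham), but so were 5 olfactory bulb genes (62.4 to 147 CPM) and 6 striatal genes (235 to 1111 CPM). None of the genes in the 12 marker lists was at 0 in every library of a group.

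In normotensive mice, 8 members changed after stroke, 6 of them regulators of G1/S or subunits of the replicative helicase. In NT + Stroke vs NT + Sham, *Mcm3*, *Mcm4*, *Mcm7*, *Cdk4*, *Mki67* and *Cdkn1a* rose, and *E2f1* and *Ccne1* fell (edgeR's quasi-likelihood test, adjusted *P* under 0.05). These 8 were 20.0% of the 40 members with enough counts to be tested, while 25.9% of all 16835 genes tested passed (14.4% upregulated and 11.5% downregulated), so the share of members called was not above the background. At an unadjusted *P* under 0.05 there were 14 members (36.0% of all genes). The median log2 fold change was 0.16 over the members tested and −0.011 over all genes tested, and 27 of the 40 members had a value above 0. By role, it was −0.13 for the G1 and G1/S regulators and 0.20 for replication and DNA synthesis. It was 0.22 for the S, G2 and M cyclins, *Cdk1* and *Foxm1*, 0.29 for the mitotic kinases and their group, 0.15 for the chromosome and spindle proteins and 0.34 for the inhibitors. Counts, and so precision, differed between roles, so the calls do not rank the roles by size of change. In 4 members, *Mcm3*, *Mcm7*, *Cdk4* and *E2f1*, the libraries of the 2 groups did not overlap, which held for 13.5% of all genes tested.

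**Figure D2:**
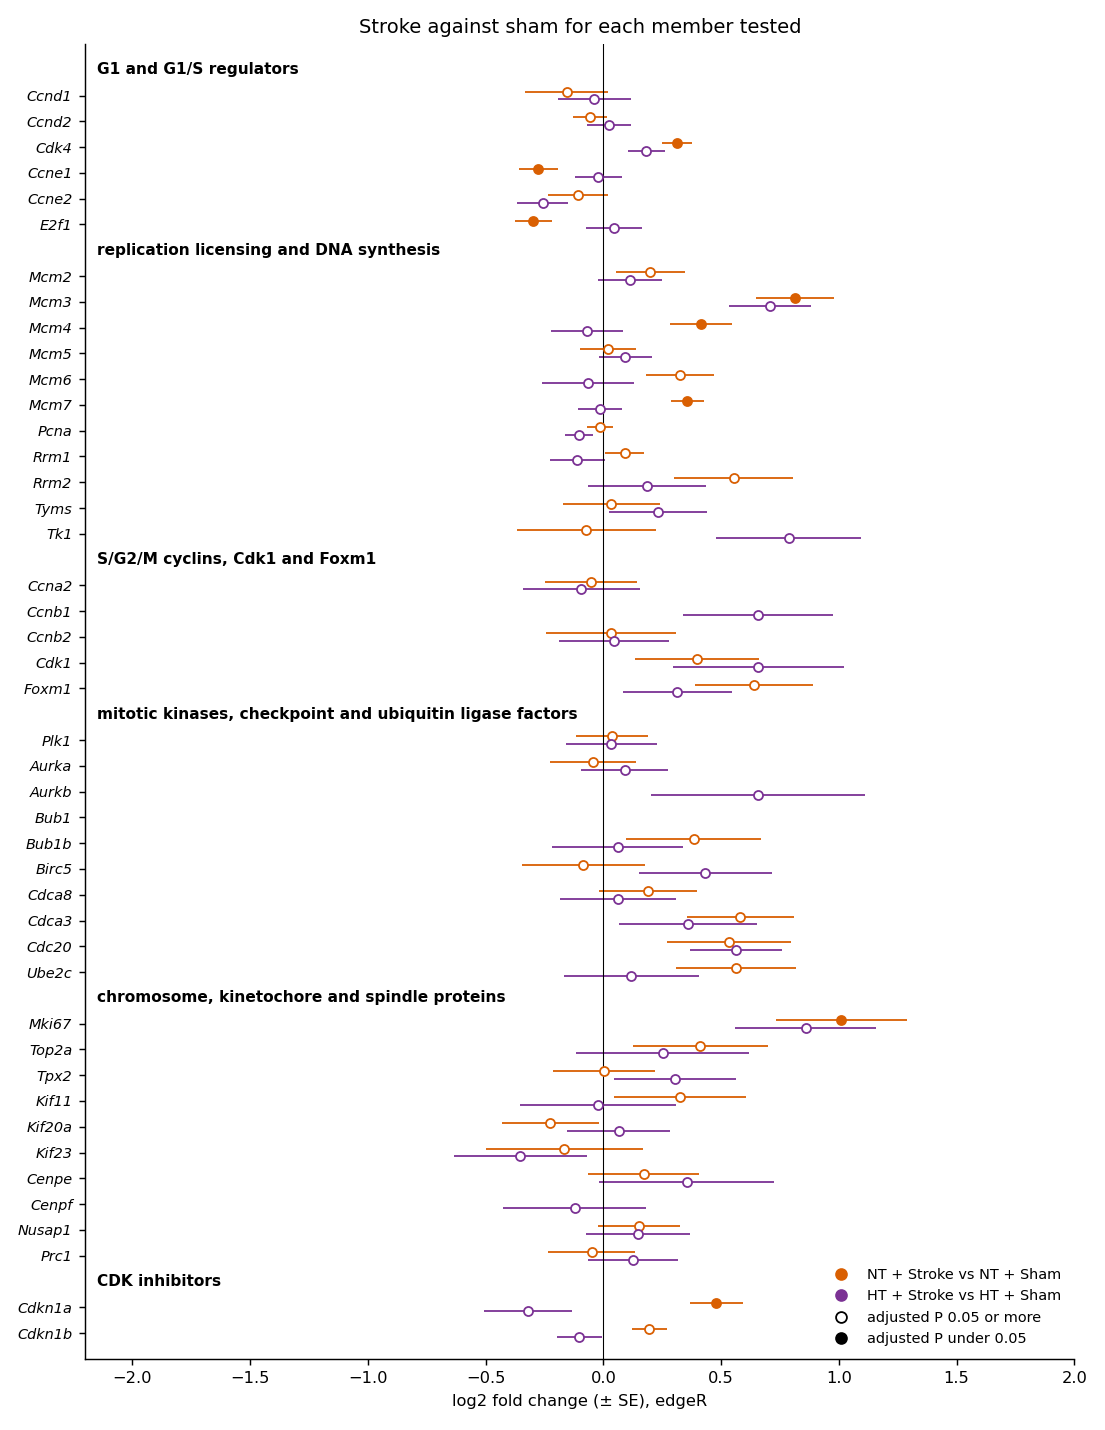
Log2 fold change (point) and SE (line) of each member tested in NT + Stroke vs NT + Sham (orange) and in HT + Stroke vs HT + Sham (purple), grouped by role, with filled points for an adjusted *P* under 0.05. The 8 filled points are all orange, and *Mcm3* and *Mki67* lie to the right of 0 in both comparisons.

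Among the G1 and G1/S regulators, *Cdk4* rose, *E2f1* and *Ccne1* fell, and 3 of 6 members did not pass. *Cdk4* (ENSMUSG00000006728, GRCm38 chromosome 10, 127063534 to 127067920), the kinase partner of the D cyclins, had 45.1 to 58.1 CPM (median 56.4) in NT + Sham and 60.6 to 71.7 CPM (median 68.1) in NT + Stroke. Every NT + Stroke library lay above every NT + Sham library (log2 fold change 0.31 with SE 0.0642, adjusted *P* = 0.00136). *E2f1* (ENSMUSG00000027490, GRCm38 chromosome 2, 154559407 to 154569892), a transcription factor of replication genes, had 23.6 to 27.0 CPM (median 25.5) in NT + Sham and 16.2 to 22.4 CPM (median 21.0) in NT + Stroke. It was lower in 6 of 6 libraries without overlap (log2 fold change −0.30 with SE 0.0781, adjusted *P* = 0.00869). *Ccne1* (ENSMUSG00000002068, GRCm38 chromosome 7, 38097984 to 38107534), cyclin E1, had 17.0 to 20.0 CPM (median 18.6) in NT + Sham and 13.0 to 17.5 CPM (median 15.1) in NT + Stroke. All 6 NT + Stroke libraries lay below the NT + Sham median although the ranges overlapped (log2 fold change −0.28 with SE 0.0826, adjusted *P* = 0.0187). This call was lost without library 5 of NT + Sham (adjusted *P* = 0.0509) or library 1 of NT + Stroke (adjusted *P* = 0.0586), and with no scaling beyond library size (−0.21, SE 0.0823, adjusted *P* = 0.0694). The D cyclins *Ccnd1* (−0.16, SE 0.177) and *Ccnd2* (−0.056, SE 0.0714), and cyclin E2, *Ccne2* (−0.11, SE 0.128), did not pass. Of the exon bases of *Cdk4*, 19.7% are shared with *Tspan31* on the opposite strand, and the strand setting of the counting is not given in the sources used here.

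Of the 11 genes of replication licensing and DNA synthesis, 3 rose, all of them subunits of the MCM helicase, and 0 fell. This share of 27.3% was close to the 25.9% of all genes tested that were called. *Mcm3* (ENSMUSG00000041859, GRCm38 chromosome 1, 20802968 to 20820312) had 1.65 to 3.22 CPM (median 2.30) in NT + Sham and 3.28 to 4.78 CPM (median 3.99) in NT + Stroke. The ranges did not overlap (log2 fold change 0.81 with SE 0.166, adjusted *P* = 0.00126). *Mcm7* (ENSMUSG00000029730, GRCm38 chromosome 5, 138164583 to 138172422) had 13.7 to 16.1 CPM (median 15.2) in NT + Sham and 18.1 to 20.9 CPM (median 18.9) in NT + Stroke. It also separated the 2 groups without overlap (log2 fold change 0.36 with SE 0.0710, adjusted *P* = 0.00104). *Mcm4* (ENSMUSG00000022673, GRCm38 chromosome 16, 15623897 to 15637400) had 4.73 to 7.99 CPM (median 6.61) in NT + Sham and 6.85 to 10 CPM (median 8.81) in NT + Stroke. All 6 NT + Stroke libraries lay above the NT + Sham median, with some overlap (log2 fold change 0.41 with SE 0.131, adjusted *P* = 0.0253). The other subunits did not pass, with log2 fold changes of 0.33 for *Mcm6* (SE 0.145, adjusted *P* = 0.112), 0.20 for *Mcm2* and 0.021 for *Mcm5*. *Mcm6* passed without library 2 of NT + Stroke (adjusted *P* = 0.00982). *Pcna* had 48.8 to 57.4 CPM in NT + Sham and 49.7 to 55.6 CPM in NT + Stroke, with nearly equal medians of 52.0 and 50.9 CPM (log2 fold change −0.014 with SE 0.0553, adjusted *P* = 0.890). The nucleotide synthesis genes had log2 fold changes of 0.55 for *Rrm2* (SE 0.253, adjusted *P* = 0.121), 0.090 for *Rrm1*, 0.034 for *Tyms* and −0.072 for *Tk1*, none past the threshold.

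**Figure D3:**
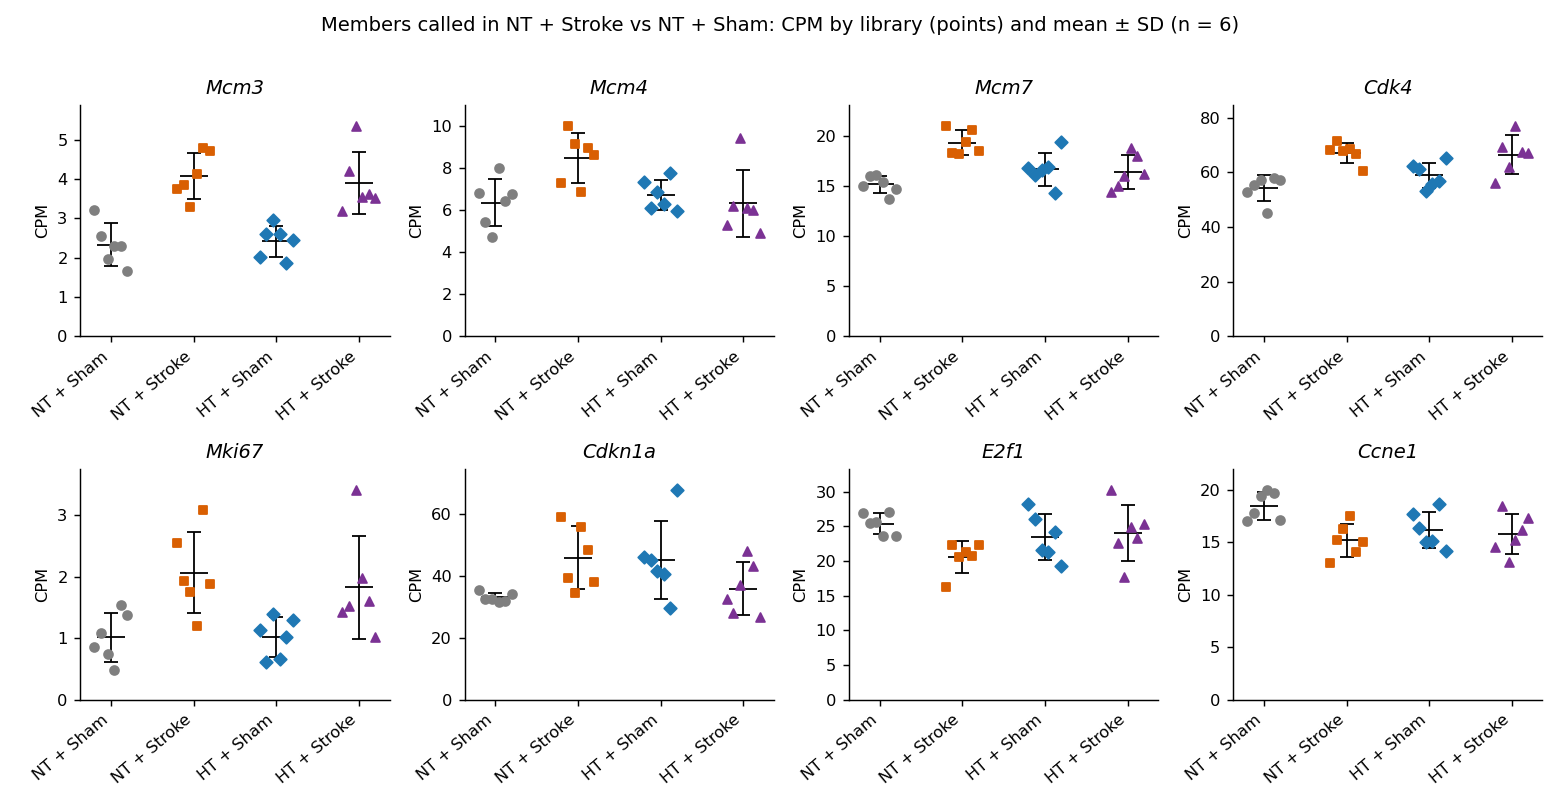
CPM of the 8 members called in NT + Stroke vs NT + Sham, with 1 point per library, the mean (horizontal line) and SD (whiskers, n = 6) in each of the 4 groups, on axes that start at 0. *Mcm3* and *Mki67* are higher in both stroke groups, while *Cdkn1a* and *Mcm7* are higher in NT + Stroke than in HT + Stroke on average.

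The S, G2 and M cyclins, *Cdk1* and *Foxm1* did not pass in normotensive mice, with 4 of 5 members tested. *Foxm1*, a transcription factor of G2 and M genes, had 0.653 to 1.97 CPM (median 1.31) in NT + Sham and 1.32 to 2.95 CPM (median 2.12) in NT + Stroke. All 6 NT + Stroke libraries lay above the NT + Sham median (log2 fold change 0.64 with SE 0.251, adjusted *P* = 0.0696). It passed without NT + Sham library 5 or 6 or NT + Stroke library 4 (adjusted *P* = 0.0459, 0.0412 and 0.0297). *Cdk1*, the mitotic kinase, had 0.375 to 0.841 CPM in NT + Sham and 0.574 to 1.15 CPM in NT + Stroke (log2 fold change 0.40 with SE 0.261, adjusted *P* = 0.295). The log2 fold changes of *Ccna2*, cyclin A2, and *Ccnb2*, cyclin B2, were −0.052 (SE 0.194) and 0.033 (SE 0.277). *Ccnb1*, cyclin B1, had 4 to 20 counts per library in NT + Sham and 5 to 14 in NT + Stroke and was too low to test.

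Of the 10 mitotic kinases, checkpoint and ubiquitin ligase factors, 8 were tested and none passed. *Cdca3*, a factor of mitotic entry, had 0.912 to 1.52 CPM (median 1.09) in NT + Sham and 0.961 to 2.18 CPM (median 1.83) in NT + Stroke (log2 fold change 0.58 with SE 0.227, adjusted *P* = 0.0674). It passed without library 2 of NT + Sham (adjusted *P* = 0.0458) or library 4 of NT + Stroke (adjusted *P* = 0.0168). *Cdc20*, the activator of the anaphase-promoting complex, had 0.751 to 2.02 CPM (median 1.23) in NT + Sham and 1.50 to 2.90 CPM (median 1.67) in NT + Stroke. It lay above the NT + Sham median in 6 of 6 libraries (log2 fold change 0.54 with SE 0.263, adjusted *P* = 0.152), as did *Ube2c*, the ubiquitin-conjugating enzyme of that complex (0.56, SE 0.256, adjusted *P* = 0.118). *Plk1*, polo-like kinase 1, had 2.57 to 4.10 CPM in NT + Sham and 2.82 to 4.05 CPM in NT + Stroke (0.035, SE 0.153). The log2 fold changes of *Bub1b*, *Cdca8*, *Aurka* and *Birc5* were 0.38, 0.19, −0.045 and −0.085, and *Aurkb* and *Bub1* were too low to test.

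Among the 10 chromosome, kinetochore and spindle proteins, *Mki67* passed and the other 8 tested did not. *Mki67* (ENSMUSG00000031004, GRCm38 chromosome 7, 135689784 to 135716361), which encodes the proliferation antigen Ki-67, had 0.483 to 1.54 CPM (median 0.972) in NT + Sham and 1.202 to 3.09 CPM (median 1.91) in NT + Stroke. These are 9 to 33 and 30 to 62 counts. All 6 NT + Stroke libraries lay above the NT + Sham median, with some overlap (log2 fold change 1.01 with SE 0.278, adjusted *P* = 0.0116). *Top2a* (ENSMUSG00000020914, GRCm38 chromosome 11, 98992943 to 99024189), the topoisomerase that untangles chromosomes, had 0.429 to 2.01 CPM (median 1.24) in NT + Sham and 1.06 to 2.57 CPM (median 1.71) in NT + Stroke. The ranges overlapped over most of their length (log2 fold change 0.41 with SE 0.286, adjusted *P* = 0.324). *Kif11*, a spindle motor, had 0.32 on the log2 scale (SE 0.281) and *Prc1*, which bundles spindle microtubules, −0.050 (SE 0.185). *Cenpe*, *Nusap1*, *Tpx2*, *Kif23* and *Kif20a* lay between −0.23 and 0.17, and *Cenpf* was too low to test.

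Of the CDK inhibitors, *Cdkn1a* rose and *Cdkn1b* did not pass. *Cdkn1a* (ENSMUSG00000023067, GRCm38 chromosome 17, 29090976 to 29100727), which encodes p21, a target of p53, had 31.8 to 35.6 CPM (median 32.6) in NT + Sham and 34.6 to 59.1 CPM (median 44.03) in NT + Stroke. The NT + Sham libraries lay close together and the NT + Stroke libraries were spread, with libraries 1, 4 and 5 highest at 59.1, 56.1 and 48.6 CPM (log2 fold change 0.48 with SE 0.113, adjusted *P* = 0.00488). *Cdkn1b*, which encodes p27, had 39.2 to 43.8 CPM in NT + Sham and 40.4 to 57.3 CPM in NT + Stroke, where libraries 1, 4 and 5 were again highest (log2 fold change 0.20 with SE 0.0745, adjusted *P* = 0.0616). It passed without library 4 of NT + Sham (adjusted *P* = 0.0453), or library 2 (adjusted *P* = 0.0351) or 3 (adjusted *P* = 0.0241) of NT + Stroke.

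Markers of other cells and regions moved with the same contrast, in which 14.4% of all genes tested were upregulated and 11.5% downregulated. In NT + Stroke vs NT + Sham, 7 of 7 macrophage and activated myeloid genes, 5 of 7 microglial genes, 6 of 6 fibroblast genes, 5 of 6 astrocyte genes, 2 of 6 oligodendrocyte precursor genes, 2 of 6 endothelial genes and 2 of 4 lymphocyte genes tested rose. So did 6 of 9 neuroblast and subventricular zone genes and 3 of 5 olfactory bulb genes, while 6 of 7 cortical neuron genes fell, and 0 of 5 blood and 0 of 6 striatal genes were called by edgeR (0 and 0 at an unadjusted *P* under 0.05). The summed neuroblast genes were 142 to 195 CPM in NT + Sham, 184 to 374 in NT + Stroke, 172 to 370.1 in HT + Sham and 129 to 283 in HT + Stroke. The olfactory bulb genes were 62.4 to 147, 101 to 406, 108 to 491 and 35.0 to 306 CPM in that order. In NT + Stroke both sums were highest in libraries 1, 4 and 5, which also had the most *Cdkn1a*, and in HT + Sham both were highest in library 6. The microglial genes were 217 to 249, 288 to 383, 228 to 277 and 237 to 471 CPM. The part of these markers in the changes of the members was not tested.

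With the neuroblast score (the mean log2(CPM + 1) of the list) as a covariate, *Mcm3* was called in NT + Stroke vs NT + Sham (0.82, SE 0.270, adjusted *P* = 0.0467) and the other members were not, where 13.9% of all genes passed. In that fit the log2 fold changes of *Cdkn1a* (0.013, SE 0.120), *E2f1* (−0.12, SE 0.117) and *Mki67* (0.50, SE 0.403) were smaller in size than without the covariate, as were those of *Ccne1* (−0.20, SE 0.134) and *Mcm7* (0.26, SE 0.115). *Cdk4* (0.29, SE 0.102, adjusted *P* = 0.0664) was nearly as large and *Mcm4* (0.53, SE 0.201, adjusted *P* = 0.0842) larger, with larger SEs. The value of *Mcm3* was nearly the same as without the covariate, and that of *Cdkn1a* was near 0. The neuroblast sum itself had a higher median in NT + Stroke than in NT + Sham (251.9 against 159.8 CPM), so this fit cannot separate the score from stroke. With the olfactory bulb score, a covariate added after the data were seen, 4 members were called, *Mcm3*, *Mcm4*, *Mcm7* and *Cdk4* (20.0% of all genes). *Cdkn1a* (0.15, SE 0.0953, adjusted *P* = 0.292) and *Mki67* (0.73, SE 0.340, adjusted *P* = 0.143) did not pass there.

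**Figure D4:**
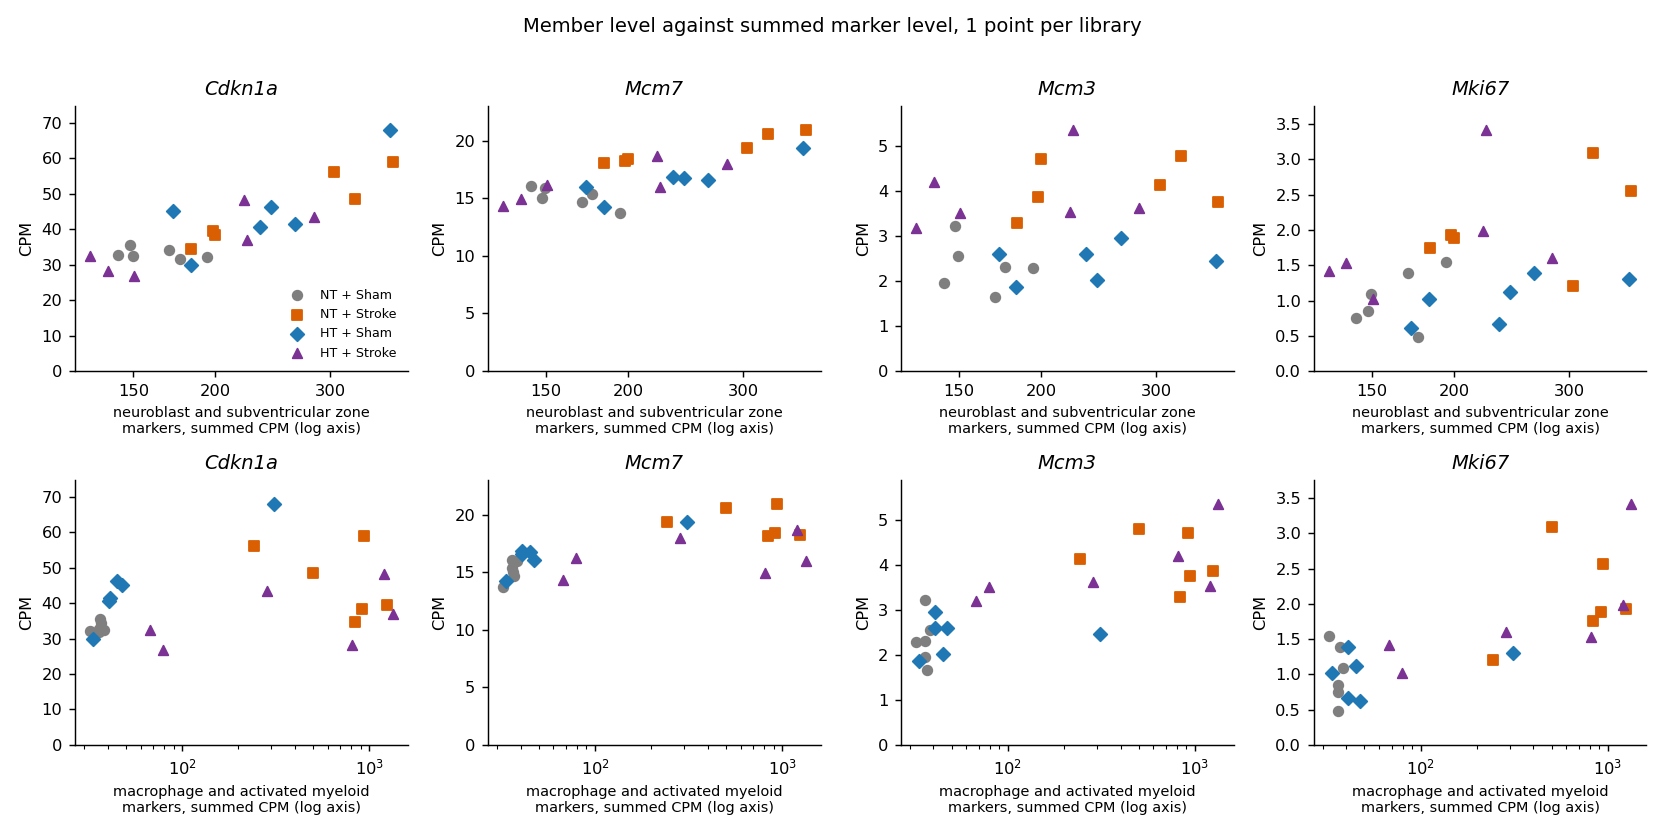
CPM of *Cdkn1a*, *Mcm7*, *Mcm3* and *Mki67* in each library against the summed CPM of the neuroblast and subventricular zone markers (upper row) and of the macrophage and activated myeloid markers (lower row), both on log axes, with 1 point per library coloured by group. The highest *Cdkn1a* values, 59.1 CPM in NT + Stroke and 68.0 CPM in HT + Sham, lie at the right end of the neuroblast axis, while the 12 stroke libraries had 3.19 CPM or more of *Mcm3* along the whole of it and the sham libraries at most 3.22 CPM.

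The proliferation genes *Mki67* and *Top2a* were set against the neuroblast and microglial sums over the 12 stroke and the 12 sham libraries, 8 relations in all, on a log2(CPM + 1) scale. Over the stroke libraries, *Mki67* and the microglial sum had Pearson's r = 0.63 (permutation *P* = 0.0270, adjusted 0.216) and Spearman's rho = 0.67 (permutation *P* = 0.0200, adjusted 0.160). Without the 2 libraries farthest from the median sum, r was 0.43. Within groups, r was 0.91 over the 6 HT + Stroke libraries and −0.11 over the 6 NT + Stroke libraries. In HT + Stroke, library 3 had the highest *Mki67* (3.42 CPM) and microglial sum (470.5 CPM), and libraries 1 and 6 had the lowest sums. The sums spanned a narrower range in NT + Stroke (288 to 383 CPM) than in HT + Stroke (237 to 471 CPM). With 6 libraries, the value in NT + Stroke does not show whether the relation is absent there. *Top2a* and the microglial sum had r = 0.56 (permutation *P* = 0.0590, adjusted 0.236) and rho = 0.42 (permutation *P* = 0.176, adjusted 0.387). This r was 0.70 without the 2 farthest libraries, 0.67 within HT + Stroke and 0.26 within NT + Stroke. *Mki67* and the neuroblast sum had r = 0.50 (permutation *P* = 0.101, adjusted 0.269) and rho = 0.55 (permutation *P* = 0.0709, adjusted 0.284). The other 5 relations had r between −0.26 and 0.38, and 0 of the 8 passed after adjustment.

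In hypertensive mice, *Mcm3* and *Mki67* had stroke values of the same direction and similar size. No member passed by edgeR across all 12 libraries without a covariate. In HT + Stroke vs HT + Sham, 0 of 43 members tested were called, where 0.645% of all 16741 genes passed by edgeR. There were 6 members at an unadjusted *P* under 0.05 (17.0% of all genes) and 1 by DESeq2 (2.80% of the genes it tested). *Mcm3* had 1.87 to 2.96 CPM (median 2.52) in HT + Sham and 3.19 to 5.35 CPM (median 3.58) in HT + Stroke. *Mcm3* had a log2 fold change of 0.71 with SE 0.174 by edgeR (adjusted *P* = 0.0699). It was the member that DESeq2 called (adjusted *P* = 0.0116), and it passed in edgeR without library 1 of HT + Stroke (adjusted *P* = 0.0382). *Mki67* had 0.617 to 1.39 CPM (median 1.07) in HT + Sham and 1.02 to 3.42 CPM (median 1.57) in HT + Stroke, where library 3 was highest (log2 fold change 0.86 with SE 0.300, adjusted *P* = 0.156). Without the 3 libraries that stood apart in myeloid markers, *Mcm3* (0.80, SE 0.205, adjusted *P* = 0.0251) and *Mki67* (1.15, SE 0.323, adjusted *P* = 0.0414) were called, where 8.47% of all genes passed. That choice took out the HT + Sham library with the highest and the HT + Stroke libraries with the lowest sums of markers that differ between stroke and sham. *Mcm3* and *Mki67* were also called with the neuroblast score as a covariate (6.10% of all genes). *Cdc20* (0.56, SE 0.196, adjusted *P* = 0.156) and *Tk1*, thymidine kinase 1 (0.79, SE 0.308, adjusted *P* = 0.206), followed. *Ccne2* had 5.19 to 6.50 CPM in HT + Sham and 4.53 to 5.13 CPM in HT + Stroke (−0.26, SE 0.109, adjusted *P* = 0.239).

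The remaining G1/S genes, helicase subunits and inhibitors that were called in normotensive mice had values near or below 0 in hypertensive mice, apart from *Cdk4*. *Cdk4* had 53.1 to 65.2 CPM in HT + Sham and 56.2 to 77.0 CPM in HT + Stroke (0.18, SE 0.0796, adjusted *P* = 0.256). The log2 fold changes were 0.047 for *E2f1* (SE 0.119), −0.021 for *Ccne1* (SE 0.0991), −0.014 for *Mcm7* (SE 0.0929) and −0.069 for *Mcm4* (SE 0.154). *Cdkn1a* had 29.8 to 68.0 CPM (median 43.4) in HT + Sham, where library 6 was highest, and 26.9 to 48.2 CPM (median 34.7) in HT + Stroke (−0.32, SE 0.188, adjusted *P* = 0.413). Without the 3 libraries its log2 fold change was nearer to 0 (−0.053, SE 0.154). The median log2 fold change was 0.091 over the 43 members and 0.00069 over all genes tested. None of the genes in the 12 marker lists was called in this comparison by edgeR. An unadjusted *P* under 0.05 was found for 6 of 6 fibroblast, 6 of 7 myeloid, 6 of 6 striatal and 4 of 7 microglial genes (17.0% of all genes).

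HT + Stroke was also set against NT + Sham, the control group that the normotensive comparison uses too. Here *Mcm3*, *Cdk4* and *Cdc20* rose, 3 of 42 members tested, where 14.7% of all 16749 genes passed. The log2 fold changes were 0.76 for *Mcm3* (SE 0.185, adjusted *P* = 0.0169), 0.30 for *Cdk4* (SE 0.0804, adjusted *P* = 0.0225) and 0.92 for *Cdc20* (SE 0.260, adjusted *P* = 0.0282). Of the markers, 5 of 6 myeloid, 6 of 6 fibroblast, 3 of 7 microglial, 2 of 6 oligodendrocyte precursor, 2 of 6 astrocyte, 1 of 3 lymphocyte and 1 of 9 neuroblast genes tested rose here and 5 of 7 cortical neuron genes fell. With the neuroblast score as a covariate *Mcm3* kept its call, while *Cdk4* (0.27, SE 0.0839, adjusted *P* = 0.0505) and *Cdc20* (0.92, SE 0.281, adjusted *P* = 0.0503) lost theirs with log2 fold changes close to those without it. The part of the markers in these calls was not tested. *Cdc20* (ENSMUSG00000006398, GRCm38 chromosome 4, 118432901 to 118437352) had 1.65 to 3.00 CPM (median 2.51) in HT + Stroke. *Mcm3* passed with each library left out in turn. *Cdk4* lost its call without NT + Sham 1, HT + Stroke 2 or HT + Stroke 4 (adjusted *P* = 0.0510, 0.0539 and 0.0538), and *Cdc20* without NT + Sham 1, 4 or 5 or HT + Stroke 2 or 4 (adjusted *P* from 0.0588 to 0.0628). At an unadjusted *P* under 0.05 there were 9 members (29.6% of all genes). Libraries 1 and 6 of HT + Stroke had the lowest myeloid sums of that group. Without them, 6 members were called, with *Cdk1* (0.92, SE 0.278), *Mki67* (1.08, SE 0.331) and *Aurkb* (0.996, SE 0.325) in addition (20.6% of all genes).

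Between blood pressure states, no member passed the threshold in sham or in stroke mice. In HT + Sham vs NT + Sham, 0 of 41 members tested were called by edgeR, as were 0% of all 16581 genes, and DESeq2 called 0 members. At an unadjusted *P* under 0.05 there were 4 members (8.03% of all genes), *Cenpf*, *Cdkn1a*, *Ccne1* and *Cdkn1b*. *Cdkn1a* did not pass with all libraries (log2 fold change 0.45 with SE 0.140, adjusted *P* = 0.426) or without HT + Sham library 6 (0.30, SE 0.0958, adjusted *P* = 0.842). In this comparison 0 neuroblast or olfactory bulb genes were called by edgeR, and 7 of 9 and 5 of 5 had an unadjusted *P* under 0.05, all with values above 0. *Cdkn1a* was 0.10 (SE 0.153) with the neuroblast score as a covariate and 0.085 (SE 0.147) with the olfactory bulb score. *Cenpf*, a kinetochore protein, had 4 to 13 counts per library in NT + Sham and 10 to 16 in HT + Sham (1.08, SE 0.338, adjusted *P* = 0.426). *Mki67* had means of 1.02 and 1.02 CPM (0.0018, SE 0.296). In HT + Stroke vs NT + Stroke, 0 of 43 members were called by edgeR and 0 by DESeq2, as were 0% of all 17008 genes by edgeR. The 2 members with an unadjusted *P* under 0.05 (7.23% of all genes) were *Mcm7* (−0.24, SE 0.0801, adjusted *P* = 0.654) and *Mcm4* (−0.42, SE 0.154, adjusted *P* = 0.654), both lower in HT + Stroke.

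The difference between the stroke effects in hypertensive and normotensive mice was tested as an interaction over all 24 libraries. None of the 43 members tested passed by edgeR (0% of all 17608 genes) or by DESeq2, and 5 had an unadjusted *P* under 0.05 (10.4% of all genes). These were *Mcm7* (−0.38, SE 0.110, adjusted *P* = 0.320), *Cdkn1a* (−0.80, SE 0.234, adjusted *P* = 0.320), *Cdkn1b* (−0.30, SE 0.122, adjusted *P* = 0.409), *Mcm4* (−0.49, SE 0.203, adjusted *P* = 0.422) and *E2f1* (0.34, SE 0.145, adjusted *P* = 0.435). For *Mcm3* the interaction was −0.11 (SE 0.232, adjusted *P* = 0.891) and for *Mki67* −0.16 (SE 0.422, adjusted *P* = 0.915). Without the 3 libraries that stood apart, the interaction of *Cdkn1a* was smaller (−0.53, SE 0.203, adjusted *P* = 0.993), and so it was with the neuroblast score as a covariate (−0.13, SE 0.181).

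Other cell cycle genes, from 4 lists grouped by function, changed in part. In NT + Stroke vs NT + Sham, 3 of 28 other replication and S phase genes tested rose and 0 fell. These were *Cdt1*, a loading factor of the MCM helicase (0.65, SE 0.170, adjusted *P* = 0.00832), *Brca1*, a DNA repair gene (0.71, SE 0.190, adjusted *P* = 0.0102), and *Cdca7* (0.60, SE 0.187, adjusted *P* = 0.0241). *Cdt1* had 1.41 to 2.34 CPM in NT + Sham and 2.40 to 3.73 CPM in NT + Stroke, without overlap. Of 37 other G2 and M phase genes tested, 4 rose and 2 fell. *Nuf2*, a kinetochore subunit (0.88, SE 0.189, adjusted *P* = 0.00183), *Hmgb2*, a chromatin protein (0.53, SE 0.139, adjusted *P* = 0.00827), and *Smc4*, a condensin subunit (0.54, SE 0.156, adjusted *P* = 0.0152), rose, as did *Lmnb1*, lamin B1. *Cdkn3*, a phosphatase of CDKs (−1.47, SE 0.327, adjusted *P* = 0.00259), and *Racgap1*, a factor of cytokinesis (−0.28, SE 0.0889, adjusted *P* = 0.0280), fell. The shares called were 10.7% and 16.2%, against 25.9% of all genes tested. The median log2 fold changes were 0.054 and 0.071 over the 2 lists and −0.011 over all genes.

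Of 18 other cell cycle brakes and pocket proteins tested in NT + Stroke vs NT + Sham, 7 rose and 0 fell (38.9% called, against 25.9% of all genes tested and 14.4% upregulated), with a median log2 fold change of 0.26 against −0.011 over all genes. *Btg1*, an antiproliferative gene, had 28.6 to 33.8 CPM (median 32.0) in NT + Sham and 41.8 to 63.7 CPM (median 46.4) in NT + Stroke, without overlap (0.68, SE 0.0958, adjusted *P* = 5.18e-05). *Cdkn2c*, which encodes the CDK inhibitor p18, had 2.94 to 5.00 CPM in NT + Sham and 5.88 to 7.46 CPM in NT + Stroke (0.72, SE 0.126, adjusted *P* = 0.000357). *Rbl1*, the pocket protein p107, also rose (0.84, SE 0.199, adjusted *P* = 0.00406), as did *Gadd45g*, a stress gene. The other 3 called genes of this list, the kinases *Cdk2* and *Cdk6* and cyclin D3, *Ccnd3*, drive the cycle and are no brakes. Of 15 p53 target genes tested, *Trp53inp1* (0.49, SE 0.116, adjusted *P* = 0.00428) and *Perp* (0.59, SE 0.149, adjusted *P* = 0.00695) rose, and *Plk2* (−0.33, SE 0.0784, adjusted *P* = 0.00459) and *Zmat3* (−0.16, SE 0.0515, adjusted *P* = 0.0268) fell, a share called of 26.7% that was close to that of all genes. In HT + Stroke vs HT + Sham, 0 genes of the 4 lists were called by edgeR, and 0, 3, 2 and 0 genes had an unadjusted *P* under 0.05 in the order given. *Nuf2* (0.71, SE 0.217, adjusted *P* = 0.114) and *Rbl1* (0.60, SE 0.284, adjusted *P* = 0.294) had values above 0 there, and *Btg1* did not (−0.13, SE 0.185, adjusted *P* = 0.773). In HT + Stroke vs NT + Sham, 0 of 28, 2 of 37, 2 of 18 and 1 of 15 genes tested were called, in the same order, all below the 14.7% of all genes.

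Exon bases are shared with another gene in 17 of the 44 members. *Mcm7* shares 7.25% of its exon bases with *Ap4m1* and 1.45% with *Cops6*, and *Cdc20* shares 2.84% with *Elovl1*, all on the opposite strand, and reads of such pairs cannot be told apart without strand. *Mcm3* and *Mki67* share none.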

How the data were processed

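RNA-seq counts of 24 libraries, 6 in each of 4 groups, were read from the tables the authors deposited and joined by gene identifier. Per the labels, reads were assigned to genes with featureCounts 1.5.0-p3, and the submitters' processing notes also name DESeq2 1.20.0. The aligner and the strand setting are not given in the sources used here. The deposited counts are raw counts per gene, and the authors' FPKM values, which are scaled by gene length and library total, were used only to compare levels between genes. The 48 normalised count columns, 8 group means and the authors' own fold changes and *P*-values were not used. Total counts per library ranged from 15922919 to 24865998, with a median of 18497215, and a *P*-value covers only the spread between libraries.

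CPM was computed on library totals adjusted by TMM factors over all 24 libraries. Genes were filtered with filterByExpr (minimum count 10 in a group's number of libraries, minimum total 15), scaled by TMM and tested with edgeR 4.0.16 (robust quasi-likelihood test, R 4.3.3), using only the groups compared, and *P*-values were adjusted by Benjamini-Hochberg over every gene in the fit, with a threshold of 0.05. The interaction used all 24 libraries. The fits were tested on simulated data. Alternatives were DESeq2 1.42.0, limma 3.58.1 on log2(FPKM + 0.1) and log2(FPKM + 1), other scaling and filters, marker scores as covariates, and leaving out each library. The members and lists were chosen with earlier results of these data known. Genes were singled out by rule as *Mki67*, *Top2a*, *Cdkn1a* and *Cdkn1b*, the 3 members with the smallest *P* in NT + Stroke vs NT + Sham and the member with the highest mean count in each role, and the 3 called genes with the smallest *P* in each direction of each other list. For some of them, such as *Ccna2*, *Kif11* and *Prc1*, values by group and adjusted *P*-values are left out. Other members singled out, such as *Mcm6*, *Tk1*, *Ccne2*, *Cenpf*, *Rrm2* and *Aurkb*, were chosen after their values were seen.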

Additional observations from a re-analysis of the deposited data

Results flagged for a closer look

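Each of 20 members was examined in each of the 4 groups of 6 libraries for 1 library far from the other 5, by Dixon's ratio of the gap to the whole range. Chance alone gives about 1 such group in 20, and 5 of the 80 groups met it. *Top2a* was 3.776 CPM in library 3 of HT + Stroke, against 1.08 to 1.85 CPM in the others. *Mcm4* was 9.44 CPM in the same library, against 4.91 to 6.18 CPM. In NT + Stroke, *E2f1* was 16.23 CPM in library 1, against 20.6 to 22.4 CPM, and *Cdc20* was 2.899 CPM in library 3, against 1.50 to 1.96 CPM. *Kif11* was 1.632 CPM in library 2 of NT + Sham, against 0.701 to 0.981 CPM. The calls of *E2f1* and *Mcm4* in NT + Stroke vs NT + Sham were kept with each of the 12 libraries left out in turn.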

How the results depend on the processing

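With each library left out in turn, the number of members called ranged from 7 to 10 in NT + Stroke vs NT + Sham (8 with all libraries), from 0 to 1 in HT + Stroke vs HT + Sham (0) and from 1 to 5 in HT + Stroke vs NT + Sham (3). Of all genes, 20.8% to 24.8%, 0.0531% to 3.15% and 8.02% to 17.5% were called in these fits, in that order. With all libraries the shares were 25.9%, 0.645% and 14.7%. The count of 1 in HT + Stroke vs HT + Sham came without HT + Stroke library 1, where 3.15% of all genes passed. In HT + Stroke vs NT + Sham, 1 was called without NT + Sham 1, HT + Stroke 2 or HT + Stroke 4 (8.85%, 8.02% and 8.26% of all genes), and 5 without HT + Stroke 6 (16.3%). With the neuroblast score as a covariate the counts of these 3 comparisons were 1, 2 and 1 (13.9%, 6.10% and 9.88% of all genes). With the olfactory bulb score they were 4 in the first and 1 in the second (20.0% and 4.34%). Without the 3 libraries that stood apart they were 2 in the second and 6 in the third (8.47% and 20.6%). In HT + Stroke vs HT + Sham, DESeq2 called 1 member (2.80% of the genes it tested) and a fit of all 24 libraries called 1 (6.39% of all genes). At an unadjusted *P* under 0.05 the counts were 14, 6 and 9 in these comparisons, 4 between the sham groups, 2 between the stroke groups and 5 for the interaction. The shares of all genes were 36.0%, 17.0%, 29.6%, 8.03%, 7.23% and 10.4% in that order. The cause of these shifts was not tested. No value of a called member changed sign. Of the alternatives for 80 values of single members (NT + Stroke or HT + Sham against NT + Sham, and HT + Stroke against HT + Sham or NT + Stroke), 1771 left the call as it was, 23 gained a call and 14 lost one. These do not cover HT + Stroke vs NT + Sham, where *Cdk4* kept its call in 9 and *Cdc20* in 7 of 12 fits with a library left out, and both lost it with the neuroblast score. No paired analysis was possible because the labels give no library numbers that tie mice together across groups. Counts of 9 to 33 per library limit the precision for *Mki67* in NT + Sham.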
